A study of Rattus norvegicus with 48 samples.

Results

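D1 and A2a medium spiny neurons of the nucleus accumbens were compared in rats killed 1 day after their last session of cocaine self-administration. The comparison was defined by the sample titles and covered 16 of the 48 libraries of the study, 8 from D1:Cre rats and 8 from A2a:Cre rats. Of these, 15 entered the test, because replicate 7 of the A2a animals held 5.29 M (mega) counts, against 28.0 to 43.4 M in the others. The animals were adult male and female rats that took cocaine or saline over 10 sessions, and each library held RNA pulled down with ribosomes by antibodies to green fluorescent protein (TRAP, translating ribosome affinity purification), so the values describe ribosome-bound RNA. The D1:Cre and A2a:Cre animals are separate transgenic lines, so neuron type and line cannot be told apart. The sources used here do not say how the tagged ribosome was brought into the neurons, nor the sex of each animal. Other animals served to repeat the comparison: 8 D1:Cre and 8 A2a:Cre rats killed 1 day after saline, and 8 D1:Cre and 8 A2a:Cre rats killed 40 days after cocaine. Input RNA was not analysed here.

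Medium spiny neurons are the GABAergic projection neurons of the striatum and make up most of its neurons. Those that express the dopamine D1 receptor, coupled to stimulation of adenylyl cyclase, also make dynorphin and substance P, whereas those that express the dopamine D2 and adenosine A2a receptors make enkephalin, and the D2 receptor inhibits adenylyl cyclase while the A2a receptor stimulates it. In the nucleus accumbens both types receive glutamate from cortex, amygdala, hippocampus and thalamus and dopamine from the ventral tegmental area, and cocaine raises dopamine there by blocking its reuptake. The labelled cell types were checked first with markers of each.

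The promoters of 4 marker genes are shown as the DNA next to transcripts that separated the neuron types without overlap, Pdyn and Chrm4 on the D1 side and Drd2 and Gpr6 on the A2a side; the promoter of Penk, which differed more, is not shown. They are the 250 bases before each annotated start, from RefSeq on build GRCr8, 5′ to 3′ on the strand of the gene. Capitals mark matches, on either strand, to any of 4 motifs, with overlapping matches all marked. The TATA box was searched as TATAAA. The GC box was searched as GGGCGG. The CCAAT box was searched as CCAAT. The cAMP response element was searched as TGACGTCA. Pdyn lies at chr3:137366504-137366753 on the minus strand, Chrm4 at chr3:98348830-98349079 on the plus strand, Drd2 at chr8:58605153-58605402 on the plus strand and Gpr6 at chr20:46075252-46075501 on the minus strand.
Pdyn: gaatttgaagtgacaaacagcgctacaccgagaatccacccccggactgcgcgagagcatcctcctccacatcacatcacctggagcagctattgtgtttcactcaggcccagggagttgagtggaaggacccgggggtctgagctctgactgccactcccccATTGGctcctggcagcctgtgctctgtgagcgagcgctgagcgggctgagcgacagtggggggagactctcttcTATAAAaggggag
Chrm4: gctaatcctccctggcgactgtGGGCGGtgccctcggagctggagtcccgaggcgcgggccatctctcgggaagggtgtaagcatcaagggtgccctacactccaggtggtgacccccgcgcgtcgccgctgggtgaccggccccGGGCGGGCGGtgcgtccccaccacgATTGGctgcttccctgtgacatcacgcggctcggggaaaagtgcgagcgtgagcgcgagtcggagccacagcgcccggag
Drd2: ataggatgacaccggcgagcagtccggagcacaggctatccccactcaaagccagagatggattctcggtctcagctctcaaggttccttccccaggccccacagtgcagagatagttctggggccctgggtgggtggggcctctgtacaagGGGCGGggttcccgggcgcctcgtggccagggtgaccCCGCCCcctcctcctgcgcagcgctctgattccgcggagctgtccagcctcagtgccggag
Gpr6: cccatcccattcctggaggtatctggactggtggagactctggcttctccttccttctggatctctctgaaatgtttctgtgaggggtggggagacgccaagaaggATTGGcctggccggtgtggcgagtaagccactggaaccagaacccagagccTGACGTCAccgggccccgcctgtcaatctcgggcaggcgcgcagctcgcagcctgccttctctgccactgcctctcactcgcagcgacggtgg
The Pdyn window held 1 TATA box and 1 CCAAT box, and that of Chrm4 held 3 GC boxes and 1 CCAAT box. The Drd2 window held 2 GC boxes, and that of Gpr6 held 1 CCAAT box and 1 cAMP response element. Of the 15683 tested genes, 10898 had a promoter in the table, and 6.62% of those windows held a TATA box, 57.1% a GC box, 34.9% a CCAAT box and 2.81% a cAMP response element. In genes higher in D1 neurons, 593 of 817 had a window, of which 5.23% held a TATA box, 61.9% a GC box, 27.0% a CCAAT box and 2.53% a cAMP response element. In genes lower in D1 neurons, 556 of 758 had one, of which the shares were 5.40%, 59.4%, 36.3% and 3.78% in the same order. These shares are a description of the letters in these windows and carry no test.

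Some libraries stood apart from the rest. On the first principal component of the 15 libraries (29.9% of the variance), D1 replicates 1 and 2 lay at -36.1 and -40.7 and A2a replicate 1 at -22.9, while the other 12 lay between -3.26 and 20.5. The summed level of 22 interferon-stimulated genes was 89.3 to 121 CPM (counts per M counts of the library, with totals scaled by trimmed means) in these 3 libraries and 156 to 502 CPM in the other 12. Microglia markers likewise summed to 184 to 207 CPM and 366 to 680 CPM. The second component (20.8%) separated the neuron types except that D1 replicate 1 lay at 4.76, above the lowest A2a library at 3.25. Y-linked genes summed to over 90 CPM in 4 D1 and 4 A2a libraries and to under 0.1 CPM in 4 D1 and 3 A2a libraries. The set number in the labels, whose meaning is not stated, was 89, 91 or 92 for 4, 2 and 2 D1 libraries and for 5, 1 and 1 tested A2a libraries. D1 replicates 1 and 2 and A2a replicate 1, the 3 libraries apart, were all of set 89. Their order numbers in the labels, whose meaning is also not stated, were 3, 9 and 4, against 15 to 52 in the other 12. The part of order and set in the first component was not tested.

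**Figure D1:**
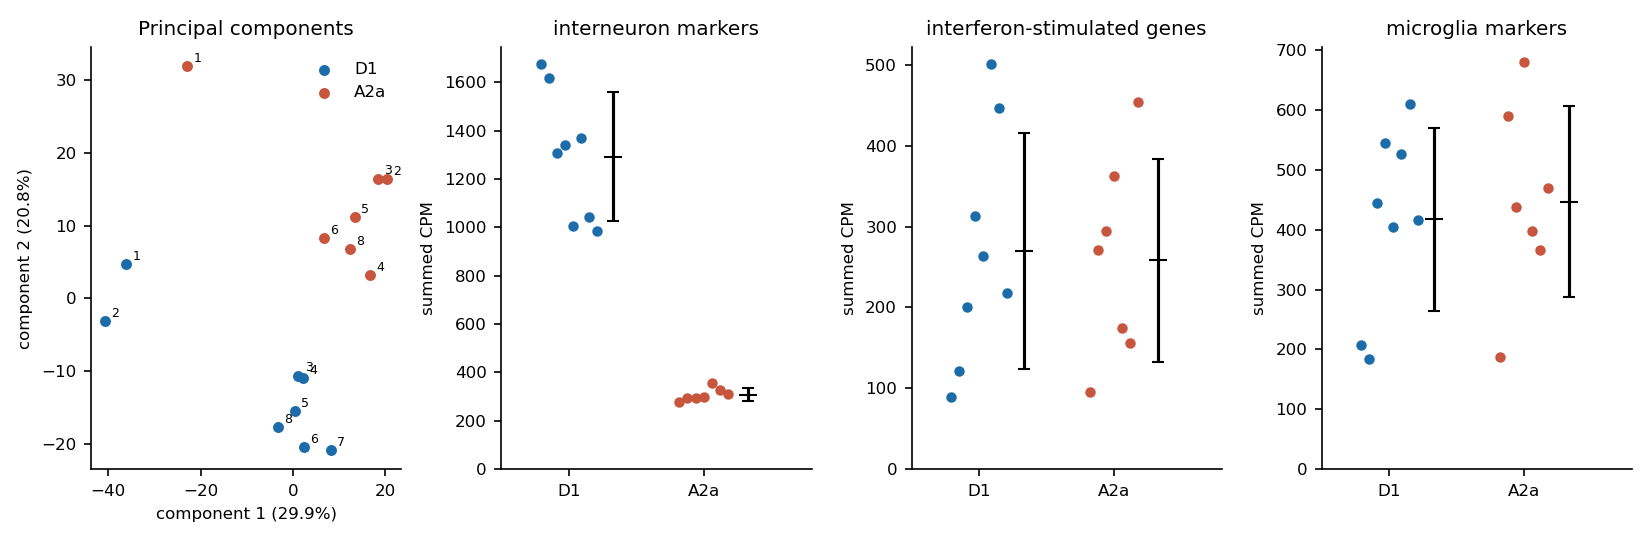
Left, the first 2 principal components of the 15 libraries (numbers are replicates). Right, summed CPM of 3 marker lists per library, D1 beside A2a, with the mean and SD as bars; interneuron markers were at 987 to 1676 CPM in every D1 library against 278 to 355 CPM in A2a libraries, while interferon-stimulated and microglia genes overlapped.

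Of 15683 tested genes, 817 (5.21%) were higher and 758 (4.83%) lower in D1 than in A2a neurons after cocaine, or 10.0% in all (edgeR quasi-likelihood test, Benjamini-Hochberg adjusted p under 0.05). The higher genes differed more: their median log2 difference was 0.58, against -0.29 for the lower ones, and 0.01 over all tested genes. A difference of at least 1 on the log2 scale was reached by 207 of the higher and by 55 of the lower genes, and 934 of the 1575 differed by less than 0.5. All D1 libraries lay above or all below all A2a libraries in 234 of the higher and 186 of the lower genes. Over all tested genes the D1 libraries lay above in 1.54% and below in 1.24%, or 2.78% without overlap. Without the 3 libraries apart on the first component, 509 were higher and 549 lower, a share of lower genes of 51.9% in place of 48.1%. Within set 89 alone, with 4 D1 and 5 A2a libraries, 421 were higher and 240 lower, and none of the 1575 changed sign in either fit. Of the 182 genes chosen by rule or by hand, 161 were called, and 46 of these lost their call within set 89. Sets 91 and 92 held too few A2a libraries for a value of their own.

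**Figure D2:**
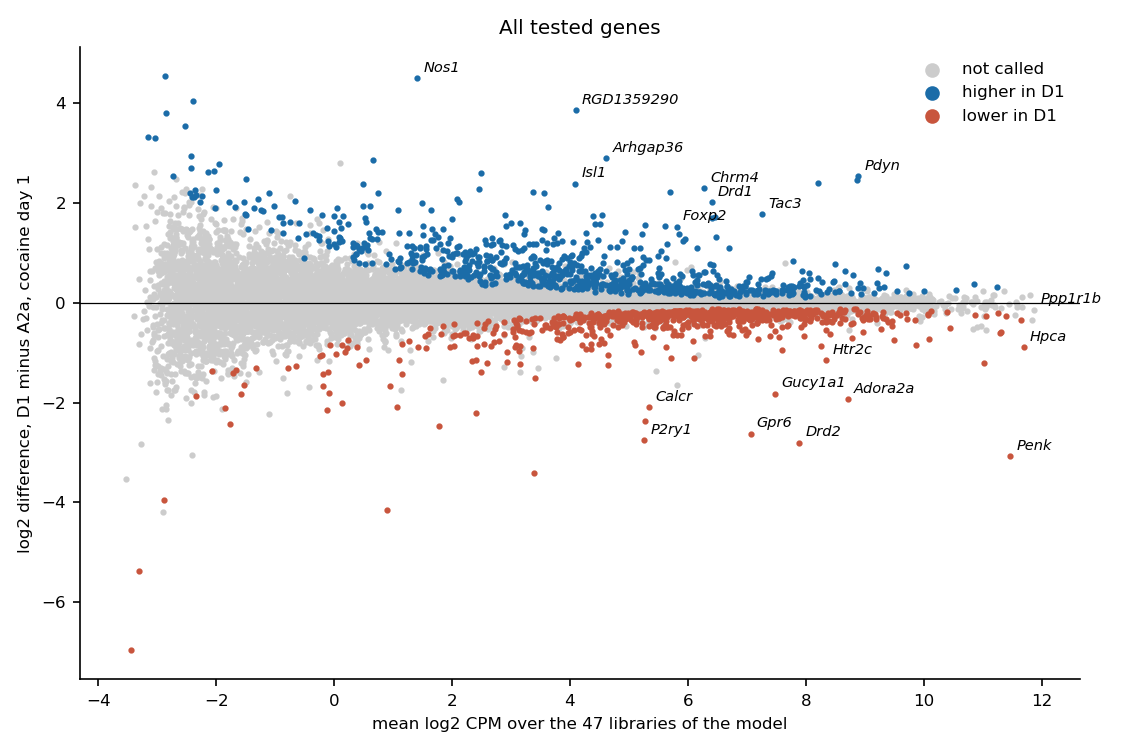
Each tested gene by its mean log2 CPM (horizontal) and its log2 difference, D1 minus A2a, after cocaine at day 1 (vertical). The 817 genes higher in D1 neurons are blue, the 758 lower ones red and the genes that were not called grey; Penk, Drd2, Gpr6 and P2ry1 lie lowest among the labelled genes.

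Drd1, Pdyn, Isl1, Drd2, Penk and Gpr6 followed the labels in every library. Drd1, the receptor that defines the D1 type, was at 248, 165, 179.5, 172, 154, 145, 131 and 150.2 CPM in D1 replicates 1 to 8, against 39.8, 43.3, 41.9, 32.4, 45.8, 46.7 and 40.4 CPM in the 7 A2a libraries, a log2 difference of 2.02 ± 0.15 (SE). Pdyn, the precursor of dynorphin, was at 1640.2, 1061, 1281, 1453, 1289, 1028, 1119 and 1153 CPM in D1 libraries, against 172, 227, 226, 165, 263, 244 and 215 CPM in A2a libraries (log2 2.54 ± 0.14). Neither gene's groups overlapped, and replicate 1 was the highest D1 library for both. Isl1, a transcription factor of the direct pathway, was at 31.4 to 42.3 CPM (median 33.6) in D1 libraries, against 5.04 to 8.55 CPM (median 6.95) in A2a libraries (log2 2.39 ± 0.12, edgeR adjusted p = 1.29e-21).

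Penk, the precursor of enkephalin, had the largest difference among the markers, with 1097, 626, 973, 1605, 1056, 1067, 1254 and 973 CPM in D1 replicates 1 to 8, against 8737, 10464, 9434, 8539, 9115, 9109 and 8338 CPM in A2a libraries (log2 -3.07 ± 0.14, edgeR adjusted p = 1.05e-21). Drd2, the dopamine D2 receptor, was at 54.5 to 130.2 CPM (median 86.9) in D1 libraries, against 572 to 705 CPM (median 668) in A2a libraries (log2 -2.80 ± 0.14). Gpr6, a constitutively active orphan receptor, was at 35.2 to 71.8 CPM (median 62.0) in D1 libraries, against 315 to 392 CPM (median 378) in A2a libraries (log2 -2.62 ± 0.12). All 3 were well above 0 in the D1 libraries, where D1 replicate 2 was lowest and D1 replicate 4 highest for each. Which cells these reads came from was not tested. In RNA pulled down from many cells, fewer cells of a type and less RNA per cell cannot be told apart. For these markers the A2a library left out had the levels of its label, with 46.1 CPM of Drd1, 194 CPM of Pdyn, 7331 CPM of Penk and 648 CPM of Drd2. Some other genes in it lay far from the tested A2a libraries. Pde10a was at 195 CPM, against 24.9 to 36.8 CPM, and Grik3 at 40.2 CPM, against 2.57 to 5.52 CPM.

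Among the 8 tested D1 markers 7 were higher and none lower (median log2 2.16), and among the 8 D2 and A2a markers 7 were lower and none higher (median -2.15). Each list had 87.5% called, against 10.0% of all tested genes. Chrm4, the inhibitory muscarinic M4 receptor, was at 138 to 212 CPM (median 165) in D1 libraries, against 26.1 to 39.8 CPM (median 33.8) in A2a libraries (log2 2.30 ± 0.11). Sfxn1, a mitochondrial serine transporter, Slc35d3, an orphan nucleotide-sugar transporter family member, and Ebf1, a transcription factor, differed by 1.70, 2.23 and 2.08 on the log2 scale. Eya1, a transcriptional coactivator, was not called (log2 0.66 ± 0.46), with a median of 0.775 CPM in D1 libraries and 0.419 CPM in A2a libraries. Tac1, the precursor of substance P, was not analysed here. On the A2a side, Adora2a, the adenosine A2a receptor, was at 122 to 295 CPM (median 221) in D1 libraries, against 743 to 1020.3 CPM (median 856) in A2a libraries (log2 -1.93 ± 0.15). The transcription factor Sp9 differed by -1.50 ± 0.23 and Plxdc1 by -0.69 ± 0.13, with D1 replicate 4 above some A2a libraries for Plxdc1, while Ttc12 did not pass (-0.04 ± 0.33).

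**Figure D3:**
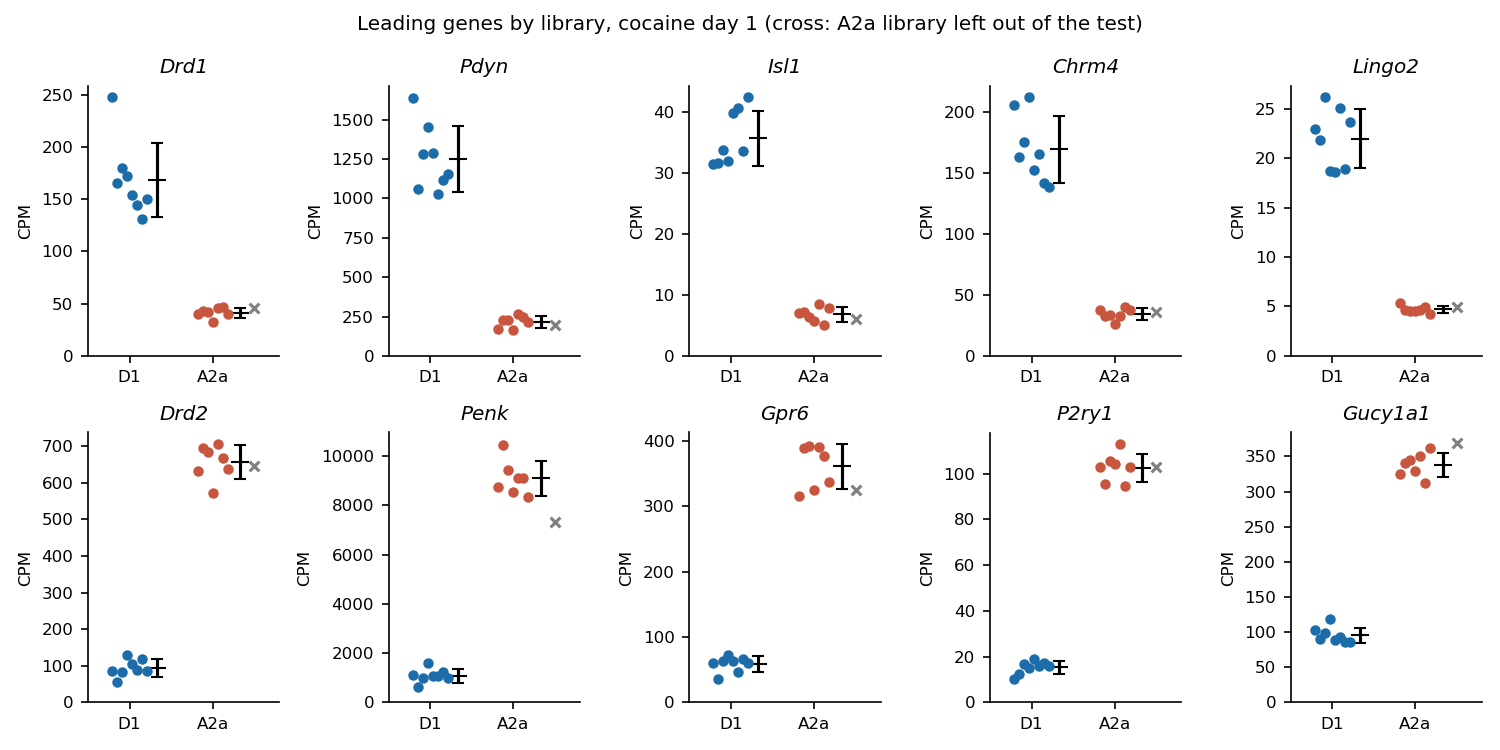
CPM of 10 leading genes in each library, D1 left of A2a, with the mean and SD as bars and the A2a library left out of the test as a grey cross. The 5 genes in the upper row are higher in every D1 library and the 5 in the lower row are lower in every D1 library than in any A2a library.

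The smallest p of all tested genes belonged to Gucy1a1, the alpha subunit of the nitric oxide receptor guanylyl cyclase, at 86.0 to 118 CPM (median 91.5) in D1 libraries, against 312 to 361 CPM (median 340.2) in A2a libraries (log2 -1.82 ± 0.08, edgeR adjusted p = 8.77e-23). Its partner subunit Gucy1b1, chosen after its values were seen, was also lower in D1 neurons, at 199 to 259 CPM in D1 libraries against 375 to 450.1 CPM in A2a libraries (log2 -0.86 ± 0.08). P2ry1, a receptor for ADP, was at 10.2 to 18.8 CPM (median 16.0) in D1 libraries, against 94.9 to 113 CPM (median 103) in A2a libraries (log2 -2.75 ± 0.12). Gpr52, an orphan receptor coupled to adenylyl cyclase, differed by -2.38 ± 0.11 on the log2 scale and Calcr, the calcitonin receptor, by -2.10 ± 0.22. On the D1 side Lingo2, a leucine-rich repeat membrane protein, was at 18.6 to 26.2 CPM (median 22.4) in D1 libraries, against 4.28 to 5.34 CPM (median 4.64) in A2a libraries (log2 2.22 ± 0.12, edgeR adjusted p = 4.79e-21). Arhgap36, an inhibitor of protein kinase A signalling, was at 36.5 to 132 CPM in D1 libraries, against 5.75 to 12.7 CPM in A2a libraries (log2 2.90 ± 0.27), with a wide range among the D1 animals. Camk2d, chosen after its values were seen, was higher by 1.55, and Azin2, B3gat1 and Slitrk6, chosen likewise, differed by -1.10, -0.96 and -2.21.

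Genes of both medium spiny neuron types leaned to the A2a side: 6 of 16 tested were lower in D1 neurons and none was higher, and the median log2 difference was -0.24. The share called was 37.5%, against 10.0% of all tested genes. Rasd2, the striatal small GTPase Rhes, differed by -0.73, and the transcription factors Foxp1 and Bcl11b differed by -0.66 and -0.38. Ppp1r1b, which encodes the phosphatase inhibitor DARPP-32, was not called, with 3130.0 to 4509.7 CPM (median 3622) in D1 libraries and 3385 to 4514 CPM (median 4127) in A2a libraries (log2 -0.14 ± 0.11), and neither was the phosphodiesterase Pde10a (-0.12 ± 0.15). Hpca, the calcium sensor hippocalcin, was chosen after its values were seen and was at 1871 to 3349 CPM in D1 libraries, against 3593 to 5271 CPM in A2a libraries (log2 -0.88 ± 0.12). Of 8 genes of striosomes and of eccentric medium spiny neurons, 3 were higher in D1 neurons (37.5% called), Tshz1 by 0.70, Otof by 1.10 and Lypd1 by 0.39. Of 4 matrix genes 2 were lower (50% called), the calcium buffer Calb1 (log2 -0.61 ± 0.14) and the ephrin receptor Epha4 (log2 -0.33 ± 0.09). Oprm1, the mu opioid receptor and a striosome marker, was at 0.179 to 0.576 CPM in D1 libraries and 0.121 to 0.424 CPM in A2a libraries and did not pass (0.47 ± 0.40).

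**Figure D4:**
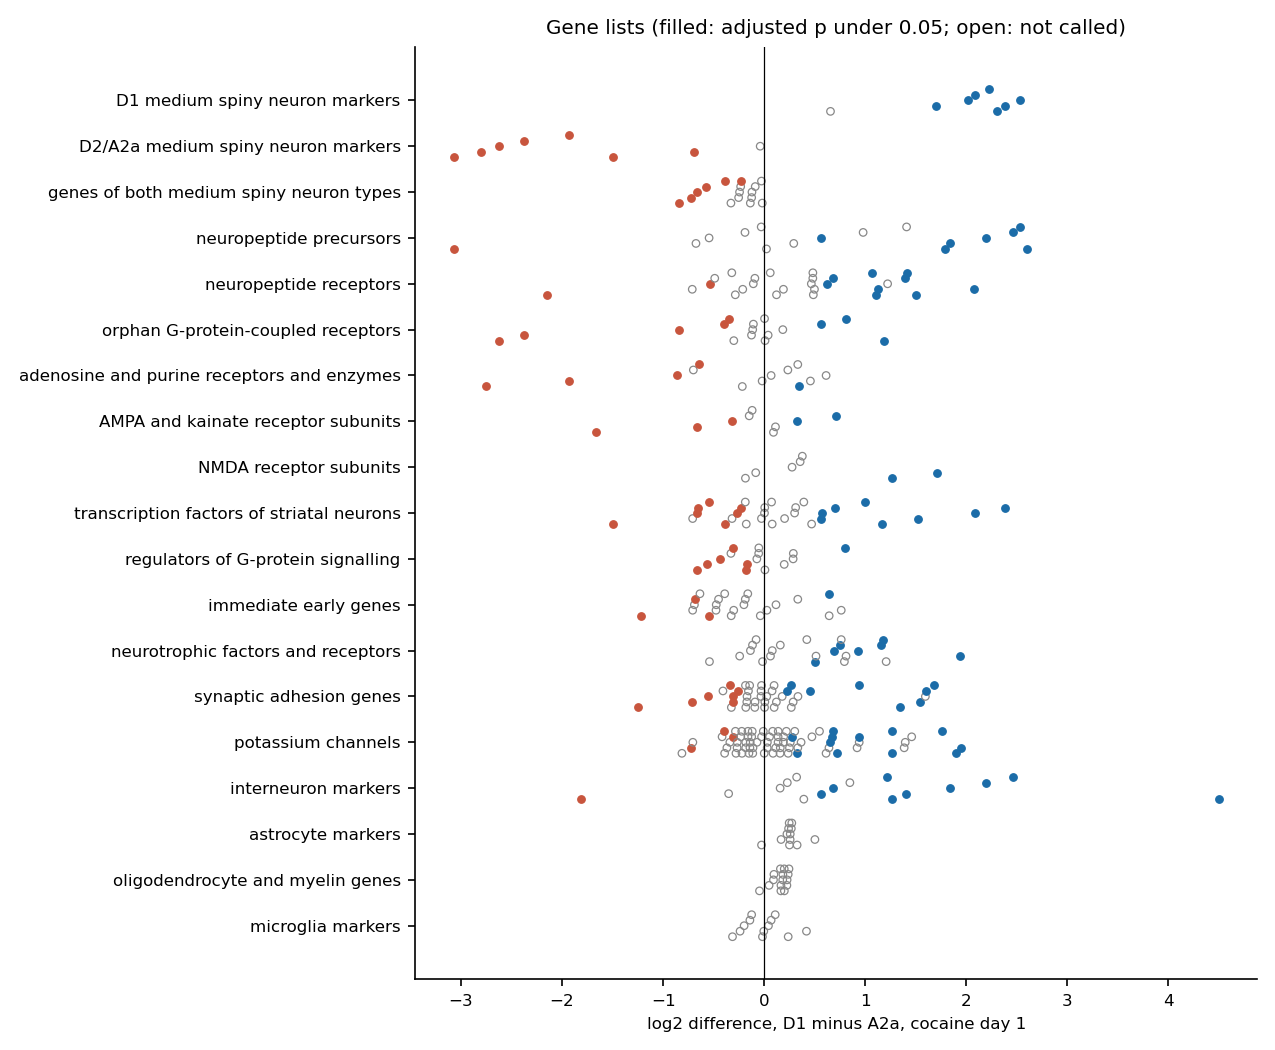
Log2 difference, D1 minus A2a, of every tested member of 19 gene lists; filled points passed an adjusted p of 0.05 (blue higher, red lower in D1 neurons) and open points did not. Astrocyte, oligodendrocyte and microglia markers have no filled point. Potassium channels have 12 higher and 3 lower (20.8% called, against 10.0% of all tested genes).

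Of 16 tested neuropeptide precursors 7 were higher and 1, Penk, lower in D1 neurons, or 50% called against 10.0% of all tested genes. Their median log2 difference was 0.77. Tac3, the precursor of neurokinin B, was at 259 to 466 CPM (median 309) in D1 libraries, against 81.7 to 112 CPM (median 92.4) in A2a libraries (log2 1.79 ± 0.14). Sst, the precursor of somatostatin and a marker of interneurons, was at 1454, 1339, 1139, 1207, 858, 1194, 903 and 831 CPM in D1 libraries, against 179, 202, 193, 175, 242, 219 and 207 CPM in A2a libraries (log2 2.46 ± 0.16). The groups were apart for both genes, and the highest A2a library had 242 CPM of Sst while the lowest D1 library had 831 CPM. Pnoc, the nociceptin precursor, was chosen after its values were seen and was at 7.83 to 29.5 CPM in D1 libraries, against 1.26 to 4.47 CPM in A2a libraries (log2 2.60 ± 0.29). Nmb, which encodes neuromedin B, differed by 2.20 ± 0.47. Cartpt, the precursor of the cocaine- and amphetamine-regulated transcript peptides, was also chosen after its values were seen and did not pass, with 242 to 457 CPM (median 381) in D1 libraries and 316 to 604 CPM (median 586) in A2a libraries (log2 -0.54 ± 0.18). It stayed not called in 19 of 28 alternative fits and was called lower in the rest (log2 -0.64 to -0.48 over all 28).

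Of 27 tested neuropeptide receptors 9 were higher and 2 lower in D1 neurons (median log2 0.48), or 40.7% called against 10.0% of all tested genes. Oprd1, the delta opioid receptor for enkephalin, was at 0.159 to 0.875 CPM (median 0.341) in D1 libraries, against 1.25 to 2.21 CPM (median 1.89) in A2a libraries (log2 -2.14 ± 0.32). Oprk1, the kappa receptor for dynorphin, was chosen after its values were seen and was at 5.35 to 7.95 CPM in D1 libraries, against 2.88 to 5.76 CPM in A2a libraries (log2 0.62 ± 0.18); the call was lost without A2a replicate 4 (log2 0.54), without the 3 libraries apart (0.54) and with A2a replicate 7 kept (0.51). Some receptors for somatostatin (Sstr1 and Sstr4), substance P (Tacr1) and vasoactive intestinal peptide (Vipr2) were higher, while Sstr2, Sstr3, Sstr5 and Vipr1 were tested and not called. Sstr4 differed by 1.11 ± 0.19, Tacr1 by 2.08 ± 0.52 and Vipr2 by 1.06 ± 0.29, all at a median under 4 CPM in both groups.

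Of 4 tested dopamine receptors, among them the markers Drd1 and Drd2, 2 were higher and 1 lower in D1 neurons (75% called). The share was 20% for muscarinic and 20% for serotonin receptors, against 10.0% of all tested genes. Besides Drd1 and Drd2, Drd3, the D3 receptor, was higher in D1 neurons at a low level, 0.216 to 1.33 CPM in D1 libraries against 0 to 0.358 CPM in A2a libraries (log2 1.87 ± 0.53), and the call was lost with A2a replicate 7 kept (log2 1.41), which itself had 1.53 CPM. Drd5 did not pass (log2 0.30 ± 0.75). Of 5 muscarinic receptors only Chrm4 was called; Chrm1, the M1 receptor, was at 70.0 to 95.3 CPM (median 83.4) in D1 libraries and 83.1 to 97.2 CPM (median 93.4) in A2a libraries (log2 -0.15 ± 0.08). Htr2c, the serotonin 2C receptor, was at 154 to 287 CPM (median 214) in D1 libraries, against 421 to 540.2 CPM (median 477) in A2a libraries (log2 -1.16 ± 0.11), and Htr2a differed by -0.73 ± 0.13; the other 8 of 10 tested serotonin receptors were not called. Cnr1, the CB1 cannabinoid receptor, was higher in D1 neurons, with 19.9 to 27.1 CPM (median 23.1) in D1 libraries against 7.92 to 16.8 CPM (median 14.3) in A2a libraries (log2 0.76 ± 0.15). Abhd6, a hydrolase of the endocannabinoid 2-arachidonoylglycerol, was lower (log2 -0.30 ± 0.05).

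Of 13 tested adenosine and purine genes 4 were lower in D1 neurons, namely P2ry1, Adora2a, Adk and Nt5e, and 1, the nucleoside transporter Slc29a1, was higher (log2 0.34 ± 0.10). The share called was 38.5%, against 10.0% of all tested genes. The call of Slc29a1 was lost without the 3 libraries apart (log2 0.34), within set 89 (0.29), with only the groups compared in the fit (0.34) and without D1 or A2a replicate 4 (0.31 and 0.30). The median log2 difference of the 13 was -0.02. Nt5e, the ectonucleotidase that makes adenosine from AMP, was at 5.19 to 9.01 CPM (median 6.91) in D1 libraries, against 9.90 to 15.5 CPM (median 12.5) in A2a libraries (log2 -0.86 ± 0.15). Adk, the kinase that removes adenosine, was at 41.8 to 52.0 CPM in D1 libraries, against 63.1 to 82.5 CPM in A2a libraries (log2 -0.64 ± 0.06). Adora1, the A1 receptor, did not pass (log2 -0.22 ± 0.08), but was called lower in all except 23 of 28 alternative fits. Of 16 orphan receptors 3 were higher and 5 lower (50% called). Gpr83 differed by 1.19 ± 0.15, with 12.5 to 29.2 CPM in D1 libraries against 5.61 to 10.2 CPM in A2a libraries.

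Of 9 AMPA and kainate receptor subunits 2 were higher and 3 lower in D1 neurons (median log2 -0.12), or 55.6% called. The share was 28.6% for NMDA, 14.3% for metabotropic and 13.3% for GABA receptor genes, against 10.0% of all tested genes. Gria3, an AMPA receptor subunit, was at 117 to 148 CPM (median 137) in D1 libraries, against 185 to 228 CPM (median 222) in A2a libraries (log2 -0.67 ± 0.08). Gria2, the subunit that makes AMPA receptors impermeable to calcium, was lower (log2 -0.32 ± 0.07), while Gria1 did not pass, with 68.6 to 105 CPM (median 77.1) in D1 libraries and 79.5 to 102 CPM (median 84.8) in A2a libraries (log2 -0.12 ± 0.09). Grik3, a kainate receptor subunit, had the largest difference of the family at a low level, 0.478 to 2.10 CPM in D1 libraries against 2.57 to 5.52 CPM in A2a libraries (log2 -1.67 ± 0.31). Of 7 NMDA receptor subunits Grin2d and Grin3a were higher, by 1.27 ± 0.26 and 1.71 ± 0.37, and the obligatory subunit Grin1 did not pass, at 496 to 532 CPM in D1 and 497 to 595 CPM in A2a libraries. Among 7 metabotropic receptors Grm8 was called and Grm5 was not (log2 -0.02 ± 0.18). The call of Grm8 was lost on leaving out any one of 9 libraries. Grm5 was called with A2a replicate 7 kept (log2 -1.11), a library with 121 CPM against 7.07 to 14.5 CPM in the tested A2a libraries. Of 15 GABA receptor subunits Gabra4 was lower (log2 -0.31 ± 0.09) and Gabbr2 higher by 0.29 ± 0.08, and both calls were lost without the 3 libraries apart, at log2 -0.30 for Gabra4 and 0.21 for Gabbr2.

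Signalling genes below these receptors also differed. Of 37 tested genes of the cAMP pathway 4 were higher and 5 lower in D1 neurons, or 24.3% called against 10.0% of all tested genes. Adcy2, an adenylyl cyclase, was at 75.8 to 126 CPM (median 92.2) in D1 libraries, against 30.2 to 43.0 CPM (median 37.0) in A2a libraries (log2 1.39 ± 0.10). Both identifiers named Gnas, the stimulatory G protein alpha subunit, were lower (log2 -0.74 ± 0.15 and -1.10 ± 0.21), and reads of one may be counted for the other. Of 15 regulators of G-protein signalling 6 were lower, 1 was higher and 8 were not called (46.7% called). Rgs2, which acts on Gq, was at 71.8 to 105 CPM (median 84.0) in D1 libraries, against 106 to 143 CPM (median 129) in A2a libraries (log2 -0.57 ± 0.09), and Rgs10 and Rgs8 differed by -0.66 and -0.44. Rgs6 was the member that was higher, at 25.0 to 33.5 CPM in D1 libraries against 15.0 to 20.2 CPM in A2a libraries (log2 0.80 ± 0.08).

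Of 29 transcription factors of striatal neurons 8 were higher and 7 lower in D1 neurons, or 51.7% called against 10.0% of all tested genes. Foxp2, a forkhead factor, was at 76.1 to 115 CPM (median 87.3) in D1 libraries, against 26.5 to 39.8 CPM (median 30.5) in A2a libraries (log2 1.53 ± 0.11), and Foxp1 went the other way, at 59.1 to 79.0 CPM (median 63.9) in D1 libraries against 88.6 to 124 CPM (median 102) in A2a libraries (log2 -0.66 ± 0.10). The D1 and A2a libraries overlapped for neither gene. Pbx3 was higher by 0.56 ± 0.08. Among 18 retinoic acid genes 3 were higher and 1 lower (22.2% called). Crabp1, a cytosolic binding protein for retinoic acid, was at 61.8 to 86.3 CPM (median 71.9) in D1 libraries, against 28.6 to 34.5 CPM (median 34.1) in A2a libraries (log2 1.18 ± 0.12). Crabp2, the homologue of Crabp1, did not pass (0.10 ± 0.25).

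Immediate early genes, which neurons induce within minutes of activity, counted 1 higher and 3 lower of 22 in D1 neurons, or 18.2% called against 10.0% of all tested genes, with a median log2 difference of -0.31. Egr1 was at 182, 103, 145, 182, 176, 139, 148 and 134 CPM in D1 libraries, against 321, 228, 233, 307, 214, 186 and 205 CPM in A2a libraries (log2 -0.68 ± 0.13, edgeR adjusted p = 1.80e-04). Every D1 library lay below every A2a library, by a narrow margin. Egr2 differed by -1.22 ± 0.31, and its call was lost without the 3 libraries apart on the first component (log2 -0.87); Jun was higher by 0.64 ± 0.17. Fos was at 3.80 to 15.0 CPM (median 8.02) in D1 libraries and 4.59 to 34.2 CPM (median 11.8) in A2a libraries and did not pass (-0.69 ± 0.32), nor did Arc (-0.45 ± 0.26) or Fosb (-0.47 ± 0.17). Fosb stayed not called in 21 of 28 alternative fits and was called lower in the rest.

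Neurotrophic factors and their receptors were higher where they were called, 7 of 22 with none lower (median log2 0.51). The share called was 31.8%, against 10.0% of all tested genes. Fgf9 was at 14.5 to 22.3 CPM (median 19.0) in D1 libraries, against 7.92 to 14.4 CPM (median 11.9) in A2a libraries (log2 0.69 ± 0.11), and the fibroblast growth factor receptor gene Fgfr1 differed by 0.75 ± 0.13. Gfra1, the coreceptor for the glial cell line-derived factor, was higher by 1.18 ± 0.29. Of 40 synaptic adhesion genes 8 were higher and 7 lower (37.5% called). Nrxn2, a presynaptic neurexin, was at 308 to 472 CPM (median 330.1) in D1 libraries, against 513 to 611 CPM (median 569.9) in A2a libraries (log2 -0.71 ± 0.09). The cerebellins, secreted partners of neurexins, went both ways: Cbln2 was higher by 1.55 ± 0.34 and Cbln4 lower (log2 -1.25 ± 0.15). Cntnap3 and Cntnap4 of the neurexin superfamily were higher by 1.68 and 1.60.

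Semaphorins and plexins counted 6 higher and 2 lower of 33, ephrins and their receptors 2 and 3 of 20, and netrins, Slits and their receptors 2 and 2 of 18. The shares called were 24.2%, 25% and 22.2%, against 10.0% of all tested genes. Epha3 was at 4.26 to 8.36 CPM (median 5.65) in D1 libraries, against 9.58 to 15.9 CPM (median 11.2) in A2a libraries (log2 -0.98 ± 0.15). Robo2, a Slit receptor, was lower (log2 -0.47 ± 0.10) and Ntn4, a netrin, higher by 1.39 ± 0.22. Of 46 cadherins and protocadherins 3 were higher and 6 lower (19.6% called), with Cdhr1 at 1.39 ± 0.16 and Cdh12 at -0.91 ± 0.19 on the log2 scale. Perineuronal and perisynaptic matrix genes counted 5 higher and 2 lower of 24 (29.2% called). Hapln1, a link protein of hyaluronan, was at 18.5 to 31.2 CPM (median 22.7) in D1 libraries, against 11.3 to 15.3 CPM (median 11.8) in A2a libraries (log2 0.90 ± 0.12), and Reln, secreted reelin, was higher by 1.37 ± 0.23.

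Potassium channel genes counted 12 higher and 3 lower of 72 (median log2 0.10), or 20.8% called against 10.0% of all tested genes. The tandem-pore channels, which carry leak current, went both ways. Kcnk13 was at 14.7 to 19.0 CPM (median 17.4) in D1 libraries, against 5.74 to 10.3 CPM (median 7.13) in A2a libraries (log2 1.26 ± 0.13), and Kcnk12 was higher by 1.90 ± 0.34. Kcnk2, known as TREK-1, was lower, at 85.2 to 167 CPM (median 107) in D1 libraries against 152 to 215 CPM (median 199.7) in A2a libraries (log2 -0.72 ± 0.11). Cacna1g, a T-type calcium channel, was higher by 1.17 ± 0.22, and of the sodium channel beta subunits Scn3b was lower (log2 -0.39 ± 0.08).

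Interneuron markers differed in the same comparison. Of 16 tested 9 were higher and 1 lower in D1 neurons, or 62.5% called against 10.0% of all tested genes. Their summed level was 987 to 1676 CPM in D1 libraries, against 278 to 355 CPM in A2a libraries. Sst made up most of it; without Sst the other 15 summed to 132 to 277 CPM in D1 libraries and 91.6 to 121 CPM in A2a libraries, still without overlap. Nos1, the neuronal nitric oxide synthase of a striatal interneuron type, was at 52.7, 46.2, 15.7, 3.26, 2.84, 3.46, 2.17 and 3.80 CPM in D1 replicates 1 to 8, against 0.538, 1.22, 0.419, 0.484, 0.514, 0.798 and 1.00 CPM in A2a libraries (log2 4.50 ± 0.67). D1 replicates 1, 2 and 3 were far above the other D1 libraries; without the 3 libraries apart on the first component the difference was 2.81, and the A2a library left out had 10.1 CPM. Lhx6, a transcription factor of somatostatin and parvalbumin interneurons, differed by 2.20 ± 0.34, Kit by 1.40 ± 0.14 and Calb2, chosen after its values were seen, by 1.22 ± 0.32. Chat, which makes acetylcholine in cholinergic interneurons, did not pass, at 1.04 to 2.81 CPM in D1 and 0.928 to 2.97 CPM in A2a libraries (log2 0.16 ± 0.23). Th, the dopamine-synthesising enzyme, was lower, at 0.0461 to 0.853 CPM in D1 libraries against 0.723 to 4.18 CPM in A2a libraries (log2 -1.82 ± 0.43). Of the 16 markers 7 also stood on other lists here, such as peptides and potassium channels, and Npy passed no filter on low counts. The part of interneuron RNA in the differences of the peptide, channel and adhesion genes was not tested.

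Markers of other cells were not called in either direction, against 10.0% called of all tested genes. None of 12 astrocyte, 15 oligodendrocyte, 12 microglia, 10 endothelial and mural, 22 interferon-stimulated and 5 glutamatergic and dopaminergic genes passed, although 11 of the astrocyte and 14 of the oligodendrocyte genes had a difference above 0 (medians 0.25 and 0.18). Astrocyte markers summed to 1746 to 2867 CPM in D1 libraries and 1759 to 2183 CPM in A2a libraries, and oligodendrocyte genes to 4169.5 to 6867 CPM and 4097 to 5499 CPM. Gfap was at 123 to 474 CPM in D1 and 103 to 337 CPM in A2a libraries (log2 0.25 ± 0.23). The glutamatergic and dopaminergic markers summed to only 11.4 to 17.7 CPM in D1 libraries and 8.04 to 13.9 CPM in A2a libraries; Slc6a3, Slc18a2, Tbr1, Neurod1 and Neurod2 did not pass the filter on low counts.

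One gene took separate levels within the A2a animals. RGD1359290, which RefSeq (GRCr8) lists as a synonym of the pseudogene Rpl17-ps16, was at 34.6, 34.7, 62.2, 74.0, 39.3, 40.6, 44.0 and 39.2 CPM in D1 libraries, against 2.58, 3.84, 2.68, 3.29, 3.35, 2.49 and 3.94 CPM in A2a libraries (log2 3.86 ± 0.61). The A2a library left out had 30.9 CPM. Across all 48 libraries each value was either under 10 CPM or over 30 CPM: all 24 D1 libraries were over 30 CPM, and so were 1 of 8 A2a libraries after cocaine at day 1, 2 of 8 after saline and 4 of 8 at day 40. Both levels occurred among A2a animals and 1 level among D1 animals. As a pseudogene of Rpl17 it can share reads with that gene, so its values are uncertain. Rpl10a, a protein of the large ribosomal subunit, was also higher in D1 neurons, at 407, 656, 539, 684, 942, 1123, 1110.5 and 1192 CPM in D1 replicates 1 to 8, against 542, 472, 534, 415, 480.0, 544 and 629 CPM in A2a libraries (log2 0.69 ± 0.15). The 4 D1 libraries of set 89 were the lowest and the 4 of sets 91 and 92 the highest. Rpl10a is the gene of the TRAP tag, and whether reads of the tagged construct were counted for it was not tested. Within set 89 the Rpl10a difference was 0.15 and not called, and with only the groups compared in the fit it was 0.69 and not called. With a term for set number or for the Y-linked level it was 0.61 and 0.62 and still called. The Y-linked genes divided the D1 libraries in the same way, at 96.2 to 108 CPM in the 4 of set 89 and at 0 CPM in the 4 of sets 91 and 92, so set number and sex-linked level cannot be told apart among D1 libraries. Of 71 ribosomal protein genes, 1 other was called, Rpl17, which was lower (log2 -0.29 ± 0.10) and lost its call on leaving out any one of 11 libraries. The list had 2.82% called, against 10.0% of all tested genes.

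The same comparison in saline animals of day 1 gave differences of the same sign for 1547 of the 1575 genes (98.2%, against 72.2% of all tested genes). There 1370 genes (8.74%) were called, 670 higher (4.27%) and 700 lower (4.46%), and 890 were called in both with the same sign, which is 56.5% of the cocaine calls and 65.0% of the saline calls; none was called in opposite directions. At day 40 after cocaine the sign was the same for 1500 (95.2%, against 65.0% of all tested genes). Of the 3378 genes (21.5%; 10.8% higher, 10.7% lower) called at day 40, 1059 were also called at day 1 with the same sign, 67.2% of the day 1 calls and 31.3% of the day 40 calls, and 2 were called in opposite directions. At day 40 all D1 libraries carried set number 85 and all A2a libraries 88, so set and neuron type cannot be told apart there. Across the 1575 genes, which are not independent replicates, the log2 differences correlated at r = 0.90 with those in saline animals and 0.89 with those at day 40; across all 15683 tested genes r was 0.54 and 0.45.

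The size of the difference was set side by side for single genes in the 3 sets of animals. Drd1 differed by 2.02 after cocaine at day 1, by 2.00 after saline and by 1.82 at day 40, and Pdyn by 2.54, 2.68 and 2.72. Drd2 differed by -2.80, -2.78 and -2.83, and Penk by -3.07, -3.17 and -3.08. For Gucy1a1 the values were -1.82, -1.74 and -1.63. Nos1, high in D1 replicates 1 to 3 of cocaine day 1, differed by 4.50, 2.34 and 2.40, and Egr1 by -0.68, -0.31 and -0.54.

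**Figure D5:**
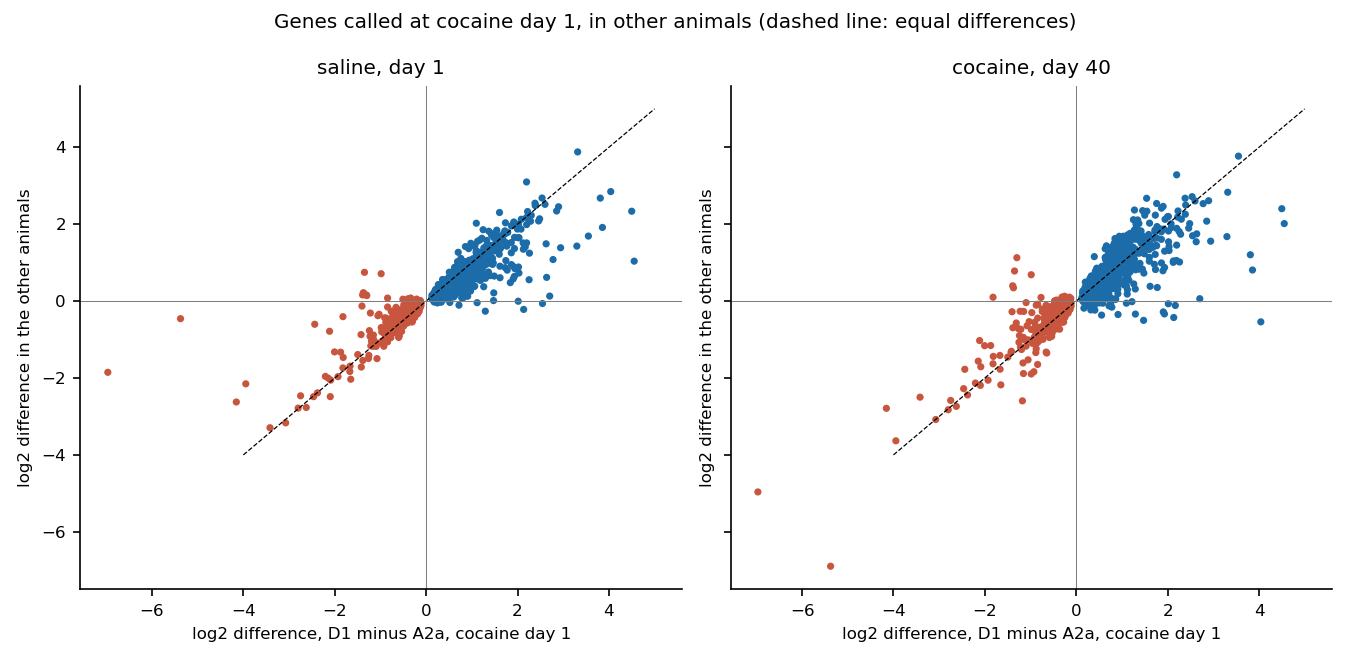
For the 1575 genes called after cocaine at day 1, the log2 difference, D1 minus A2a, in those animals (horizontal) against that in saline animals of day 1 (left) and in cocaine animals of day 40 (right). Blue genes were higher and red genes lower in D1 neurons at cocaine day 1; 98.2% and 95.2% kept their sign.

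Whether the difference between the neuron types itself depended on cocaine was tested as an interaction. At day 1, cocaine against saline, edgeR called none of 15683 genes, with 421 at an unadjusted p under 0.05; DESeq2 and limma-voom also called 0, with 429 and 446. The 5 genes of smallest p, none passing, were RGD1562404 (log2 -1.70 ± 0.45), Stag1 (-0.45 ± 0.12), Cic (0.29 ± 0.09), B4gat1 (-2.10 ± 0.63) and Arpc5 (-0.26 ± 0.08). Stag1, a cohesin subunit, was at 11.7 to 14.7 CPM in D1 and 11.4 to 17.9 CPM in A2a libraries after cocaine.

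Between cocaine day 1 and day 40 the difference changed in 8 genes (0.0510%), 6 (0.0383%) with a larger and 2 (0.0128%) with a smaller D1 minus A2a value at day 1. Zc3hav1, an antiviral zinc finger protein induced by interferon, was at 2.81 to 14.7 CPM in D1 and 2.76 to 15.4 CPM in A2a libraries at day 1, and at 2.86 to 5.00 CPM in D1 and 8.56 to 28.0 CPM in A2a libraries at day 40 (interaction log2 2.15 ± 0.43, edgeR adjusted p = 0.0344). Xaf1, another interferon-induced gene, differed by 1.26 ± 0.26, Wdtc1 by 0.35 ± 0.07 and Mtch2 by -0.28 ± 0.06. At day 40 the interferon-stimulated list differed between D1 and A2a neurons in 19 of 22 genes (median log2 -1.86) and the microglia markers in 8 of 12 (median -0.83), against none of either at day 1 (medians 0.06 and -0.01); their part in the values of Zc3hav1 and Xaf1 was not tested. The count rested on single libraries: it was 69 without A2a day 40 replicate 8, 58 without A2a day 1 replicate 4, 51 and 48 without D1 day 1 replicates 1 and 2, and 1 on leaving out any one of 7 others. Day 1 and day 40 animals carried different set numbers, so day and set cannot be told apart.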

How the data were processed

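The authors deposited 1 table of raw read counts with 48 libraries and 32883 Ensembl identifiers, of which 12500 had no name. The submitters' processing notes name STAR, SAMtools, Trimmomatic, bcl2fastq and the genome Rnor_6.0. Not given in the sources used here are versions, the counting program, the annotation release and strandedness, so reads of overlapping, antisense or near-identical genes cannot be told apart. Groups came from the sample titles, and replicates were taken as separate animals since the labels speak of 48 brains. Within the 2 groups, 56 pairs of libraries were checked and none was a duplicate.

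Genes were kept by the edgeR 4.0.16 filter on expression (minimum count 10), scaled by trimmed means of M values, and fitted in R 4.3.3 with robust quasi-likelihood and 1 term per group over 47 libraries, A2a cocaine day 1 replicate 7 left out. Contrasts were D1 minus A2a, adjusted over 15683 genes at 0.05; the SE is the log2 difference divided by the square root of F. Depth was 28.0 to 43.4 M counts, so 1 CPM rested on about 28.0 counts or more. On simulated counts (15521 genes) the test recovered 34 of 50 genes changed 1.5-fold and 44 of 50 changed 2-fold, with 7 false calls. These counts were drawn separately for each gene, without effects shared across a library, set or sex. The 7 false calls therefore do not cover such effects.

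The members and the 49 gene lists were chosen with earlier results of these data known. Cell type markers were counted again in other lists, such as Pdyn and Penk among peptide precursors, Gpr6 among orphan receptors and Adora2a among purine genes. Named genes were the markers, the 10 largest differences each way (mean log2 CPM at least 3), the 5 smallest p each way, and for each list at most 4 called members; further genes were picked with their values known, namely those the text says so of, Th, Cbln2 and the list members named that did not pass. Alternatives were DESeq2 1.42.0, limma 3.58.1 (voom), another scaling, no filter, replicate 7 kept, only the groups compared, terms for replicate, set number, order and Y-linked level, a 1.2-fold threshold, each library left out and, chosen after seeing the data, 3 libraries left out. Promoters were searched as letters in RefSeq GRCr8. Some of the chosen genes are not reported here.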

Additional observations from a re-analysis of the deposited data

Results flagged for a closer look

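Within groups, 24 of 354 sets of values for 177 chosen genes (6.78%) had 1 library whose gap to the nearest other was large for the range of its group; chance gives about 1 in 20. In D1 replicate 1, Drd1 (248 CPM), Gpr83 (29.2 CPM), ATP6 (3640 CPM), ND2 (3670 CPM) and ATP8 (119 CPM) were the highest of their group. In D1 replicate 2, Tacr1 (2.76 CPM), Hapln4 (39.4 CPM), Rims3 (11.3 CPM) and Nrxn2 (472 CPM) were highest and Calb1 (218 CPM) lowest. D1 replicate 4 was lowest for Rgs6 (25 CPM) and highest for Dnajb5 (169 CPM) and Azin2 (43.9 CPM). D1 replicate 6 was highest for Pnoc (29.5 CPM) and lowest for Cdh10 (15.4 CPM). Single values stood out for Gria2 in D1 replicate 3 (436 CPM), Slitrk6 in D1 replicate 5 (4.97 CPM) and Kcnk13 in D1 replicate 7 (14.7 CPM).

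Among A2a libraries, replicate 1 was highest for ATP8 (281 CPM), RGD1562404 (7.35 CPM) and B4gat1 (1.4 CPM), the last pair being among the 5 genes of smallest p for the interaction with cocaine. A2a replicate 4 was highest for Hapln4 (12.5 CPM) and Th (4.18 CPM) and A2a replicate 5 for Kcnk13 (10.3 CPM).

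The D1 minus A2a difference at cocaine day 1 differed from that at cocaine day 40 by an interaction test for Zc3hav1 (2.15 on the log2 scale), Xaf1 (1.26), Wdtc1 (0.35) and Mtch2 (-0.28). Set number and day cannot be told apart in this test.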

How the results depend on the processing

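The D1 against A2a count of 1575 stayed within 1.5 times of its value under DESeq2 (1754), limma-voom (1544), other size factors (1583), no filter (1410), only the groups compared (1605), replicate 7 kept (1727), terms for set number (1652), order (1765) and Y-linked level (1589), and without the 3 libraries apart (1058). Leaving out 1 library gave 1204 (without A2a replicate 2) to 1597 (without D1 replicate 3). It fell to 661 within set 89 and to 370 against a 1.2-fold threshold, where 28.6% were lower. Set 89 held 4 D1 and 5 A2a libraries, among them the 3 libraries apart. Its D1 libraries had Y-linked sums of 96.2 to 108 CPM. Its A2a replicates 1 to 3 had 102 to 119 CPM, and its A2a replicates 5 and 6 had 0 CPM. The part of each of these in the lower count was not tested. Among the 182 chosen genes, 105 kept their side of the threshold under all alternatives run. No called one of them turned its sign in 4508 comparisons. Of those not called, 6 (Oprm1, Grm5, Ttc12, Crabp2, Drd5 and Zc3hav1) did so in 22 of 585 comparisons. Over all 1575 called genes, 2 turned sign with replicate 7 kept. The interaction with cocaine had 0 calls, and 0 without any 1 library; it had 1 with replicate 7 kept and 1 within set 89. The interaction with day, 8 calls, had 0 with only the groups compared, 133 by DESeq2, 0 by limma-voom, 4 with the order term, 2 against 1.2-fold, 101 without the 3 libraries apart and 1 to 69 on leaving out 1 library; the cause was not tested. Within set 89 no value exists for the day interaction, since no day 40 library carries that number.

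Replicate numbers did not pair the libraries: same-numbered deviations correlated at -0.29 to 0.62 over 7 pairs, and 1 library correlated best with its own number. With the replicate block the counts were 1484 for D1 against A2a, 0 for the interaction with cocaine and 5 for that with day.

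At this depth and number of libraries, 7 of 50 genes changed 1.2-fold were recovered in simulated data; depth itself was not varied.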

Other observations

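Further gene lists are set beside the 10.0% called of all tested genes. Of 34 vesicle release genes 2 were higher and 3 lower in D1 neurons (14.7%), with Syt6, a synaptotagmin, at 71.7 to 109.7 CPM (median 87.0) in D1 libraries, against 122 to 139 CPM (median 132) in A2a libraries (log2 -0.55 ± 0.09). Syt10 was lower (log2 -0.82 ± 0.16). Of 20 postsynaptic density scaffolds 3 were higher and 2 lower (25%); Begain differed by 0.41 ± 0.08 and Dlg3 by -0.31 ± 0.06. Dendritic spine actin regulators counted 5 lower and 1 higher of 29 (20.7%), with the Arp2/3 subunit Arpc1a at 416 to 517 CPM (median 487) in D1 libraries, against 521 to 643 CPM (median 599) in A2a libraries (log2 -0.32 ± 0.05).

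Nuclear-encoded respiratory chain genes counted 4 lower and none higher of 67 (5.97%), all by under 0.25 on the log2 scale (Ndufa9 -0.23 ± 0.05). The calls of Ndufs3, Ndufb10 and Ndufs4 were lost on leaving out any one of 10, 8 and 6 of the 15 libraries. Mitochondrially encoded genes counted 3 lower of 13 (23.1%), and all 13 had a difference below 0 (median -0.47); ND2 was at 1409.9 to 3669.8 CPM (median 2029.8) in D1 libraries, against 2418 to 5265 CPM (median 2975) in A2a libraries (log2 -0.61 ± 0.19), and its call was lost on leaving out any one of 6 libraries. Of 27 heat shock and unfolded protein response genes 3 were lower (11.1%), among them Dnajb5 (log2 -0.39 ± 0.08), and the calls of Dnaja1 and Hsph1 were lost on leaving out any one of 4 and 3 libraries. Of 19 transporters 2 were higher and 3 lower (26.3%), with the sodium-calcium exchanger Slc24a4 at 12.3 to 19.1 CPM (median 16.9) in D1 libraries, against 23.0 to 31.3 CPM (median 25.9) in A2a libraries (log2 -0.66 ± 0.11). Dlk1, a Notch ligand homologue, was chosen after its values were seen and was at 33.6 to 95.4 CPM in D1 libraries, against 13.7 to 28.1 CPM in A2a libraries (log2 1.43 ± 0.17).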
